A study of Mus musculus with 55 samples.

Results

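The Cyp2d genes lie side by side in 1 cluster on mouse chromosome 15 and encode cytochrome P450 enzymes of the liver. The members described here were taken by gene symbol, Cyp2d9, Cyp2d10, Cyp2d11, Cyp2d12, Cyp2d22, Cyp2d26, Cyp2d34 and Cyp2d40, which makes 8 of the 37620 genes in the expression tables. A further symbol, Cyp2d13, is paired with no gene ID in the name tables used and was not analysed here. They were chosen by name alone, although earlier results of these data were known.

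Livers of 55 male mice of 29 lines of the Collaborative Cross (CC) were measured by sequencing of polyadenylated RNA. The CC is a panel of recombinant inbred lines descended from 8 inbred founders. Line mates are meant to have nearly the same genome, but the paper gives a range of inbreeding generations. Genotypes of single mice were not compared here. The mice received no treatment and were between 8 and 11.9 weeks old. The groups compared were the lines. IL-557, IL-1141, IL-1452, IL-2126, IL-2689, IL-2693, IL-4032 and IL-4141 had 1 mouse each, IL-611, IL-670, IL-785, IL-2156 and IL-2750 had 3 mice each, and the other 16 lines (IL-72, IL-219, IL-519, IL-521, IL-1052, IL-1061, IL-1513, IL-2011, IL-2146, IL-2680, IL-3348, IL-3438, IL-3575, IL-3912, IL-4052 and IL-4457) had 2. Each mouse is a separate animal, and the tests of differences among lines measure the spread between animals of a line. The correlations over line means do not use that spread. Line mates were of the same age except in IL-785, so line and age are tied, and the part of age was not tested. The founder haplotypes of the lines were not used.

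Cytochrome P450 enzymes of the endoplasmic reticulum insert an oxygen atom into drugs, steroids and other lipophilic substances, with a haem group at their centre and electrons delivered by the reductase Por. The subfamily D of family 2 holds a single active gene in humans, CYP2D6, which metabolises many prescribed drugs, whereas the mouse cluster has been duplicated repeatedly. Cyp2d9 is known as a testosterone hydroxylase of male liver whose transcription depends on growth hormone, and Cyp2d22 is regarded as the mouse counterpart of CYP2D6.

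The 8 members extend over 423.7 kb of chromosome 15 in the NCBIM37 assembly, the build of the expression tables. From the proximal end they are Cyp2d22 (ENSMUSG00000061740, chr15:82200958-82210690), Cyp2d11 (ENSMUSG00000068085, chr15:82219584-82224452), Cyp2d10 (ENSMUSG00000014372, chr15:82233276-82237624), Cyp2d9 (ENSMUSG00000068086, chr15:82282807-82287257), Cyp2d12 (ENSMUSG00000057138, chr15:82385538-82389843), Cyp2d34 (ENSMUSG00000062185, chr15:82446395-82451337), Cyp2d40 (ENSMUSG00000068083, chr15:82590265-82594613) and Cyp2d26 (ENSMUSG00000022445, chr15:82620537-82624675). Cyp2d9 and Cyp2d12 are transcribed from the plus strand and the other 6 from the minus strand. All of them are annotated as protein coding. Of other genes annotated as protein coding, Gm5806, Cyp2d37-ps and Gm5062 lie between them. Gm5062 shares 94.9% of its aligned coding bases with Cyp2d40.

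The members are close in sequence, which bears on every value below because fragments that match several genes were shared out by estimation. Coding sequences of Cyp2d10 and Cyp2d11 were identical at 94.7% of 1515 aligned bases, those of Cyp2d9 and Cyp2d11 at 93.3%, and those of Cyp2d9 and Cyp2d12 at 92.1%. Cyp2d22 was less close, with 79.4% identity to Cyp2d11 and 77.7% to Cyp2d26. The reads were 50 bases long. Stretches of 50 bases were searched for only in protein-coding transcripts of other genes. Of all stretches in a transcript, 38.4% in Cyp2d10, 34.5% in Cyp2d11 and 29.0% in Cyp2d9 also occurred there. The share was 24.5% in Cyp2d40, 16.6% in the longer transcript of Cyp2d12, 12.0% in Cyp2d34, 10.9% in Cyp2d26 and 6.1% in Cyp2d22.

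Sequence before the transcription start was at hand for 5 members from RefSeq (assembly GRCm38.p6), namely Cyp2d9, Cyp2d10, Cyp2d11, Cyp2d26 and Cyp2d40. The other members, Cyp2d12, Cyp2d22 and Cyp2d34, are named only. The last 120 bases before the start are shown because Cyp2d9, the most abundant member, and Cyp2d11, nearly silent in most lines, match at most aligned promoter bases. The spacing of these bases to the start differs between the 2 genes. Capitals mark the TATA-box letters TTTATAA and the letters CAAAGGNCA of an HNF4A-type site, each searched on both strands.
Cyp2d9 promoter (chr15:82452257-82452376, plus strand): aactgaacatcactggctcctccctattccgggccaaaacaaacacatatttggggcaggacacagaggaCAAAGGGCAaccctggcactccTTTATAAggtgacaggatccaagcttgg
Cyp2d10 promoter (chr15:82407195-82407314, minus strand): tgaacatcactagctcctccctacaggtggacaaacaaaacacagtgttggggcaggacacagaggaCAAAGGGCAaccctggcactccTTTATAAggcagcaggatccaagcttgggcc
Cyp2d11 promoter (chr15:82394023-82394142, minus strand): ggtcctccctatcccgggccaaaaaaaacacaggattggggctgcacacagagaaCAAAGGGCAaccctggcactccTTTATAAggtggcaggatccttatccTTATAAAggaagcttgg
Cyp2d40 promoter (chr15:82764123-82764242, minus strand): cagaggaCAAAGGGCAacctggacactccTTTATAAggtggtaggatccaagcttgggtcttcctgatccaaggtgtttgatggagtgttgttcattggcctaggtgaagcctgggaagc
Cyp2d26 promoter (chr15:82794246-82794365, minus strand): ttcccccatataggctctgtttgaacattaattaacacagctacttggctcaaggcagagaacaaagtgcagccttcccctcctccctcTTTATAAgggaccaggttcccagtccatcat

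The letters were searched from 250 bases before to 50 bases after the start. TTTATAA was found in all 5 promoters, against 4.01% of the 32851 RefSeq promoter windows of that length. In Cyp2d40 it lies at -91 to -85. Most of the 5 promoters are alike in sequence, so their matches are not independent of each other. CAAAGGNCA was found in 4 of them, against 1.93% of all windows, and Cyp2d26 had no match. The letters TTCNNNGAA of a STAT5-type site, searched because growth hormone acts through STAT5, were found in none of the 5, against 8.30% of all windows. Over the 250 bases before the start, Cyp2d9 and Cyp2d11 were identical at 93.6% of 234 aligned bases, whereas Cyp2d9 and Cyp2d26 matched at 53.9% of 232. Gaps in the alignment were not counted. TTTATAA begins at -28 in Cyp2d9 and at -43 in Cyp2d11, and CAAAGGGCA at -50 and -65. Cyp2d11 alone also has the TATA-box letters on the opposite strand, beginning at -17. Such matches describe letters in the reference strain, and binding was not tested.

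All mice had abundant hepatocyte RNA, with a summed level of the 5 markers Alb, Apoa1, Ttr, Tat and Serpina1a between 17457 and 69226 FPKM (fragments scaled by transcript length and by the fragments of the library). Estimated fragments assigned to genes ranged from 20542671 to 33953036 per mouse. The summed levels of the lists for other cell types ranged from 9.23 to 186.8 FPKM for Kupffer cells, 11.5 to 60.5 for endothelial cells, 1.96 to 68.2 for stellate cells, 0.50 to 10.2 for cholangiocytes, 0.42 to 10.3 for lymphocytes, 198.2 to 2756 for erythroid cells and 1.24 to 213.9 for pancreas. RNA of the 4 Y-linked markers was present in every mouse. Mouse 3 of IL-785 alone had the female transcript Xist, at 39.5 FPKM against at most 0.12 in the others. Line mates of IL-1052 and IL-2750 were the least alike over all genes, with up to 7.80% and 7.28% of expressed genes differing by more than 2-fold between mice, against 0.537% in the most alike pair. The results were also computed without these lines. In bulk tissue, a lower level cannot be told apart from fewer cells of the expressing type.

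The cluster as a whole was expressed strongly in every line. The line means of the 8 members summed to between 1167 FPKM in IL-2011 and 2549 FPKM in IL-670, a 2.18-fold range with a median of 1750. Cyp2d9, Cyp2d10 and Cyp2d26 together supplied 86.2% to 94.6% of the sum. Cyp2d9 had the highest level in 28 of the 29 lines, and Cyp2d26 took its place in IL-1452. Together the members drew 0.15% to 0.41% of all estimated fragments of a mouse.

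**Figure D1:**
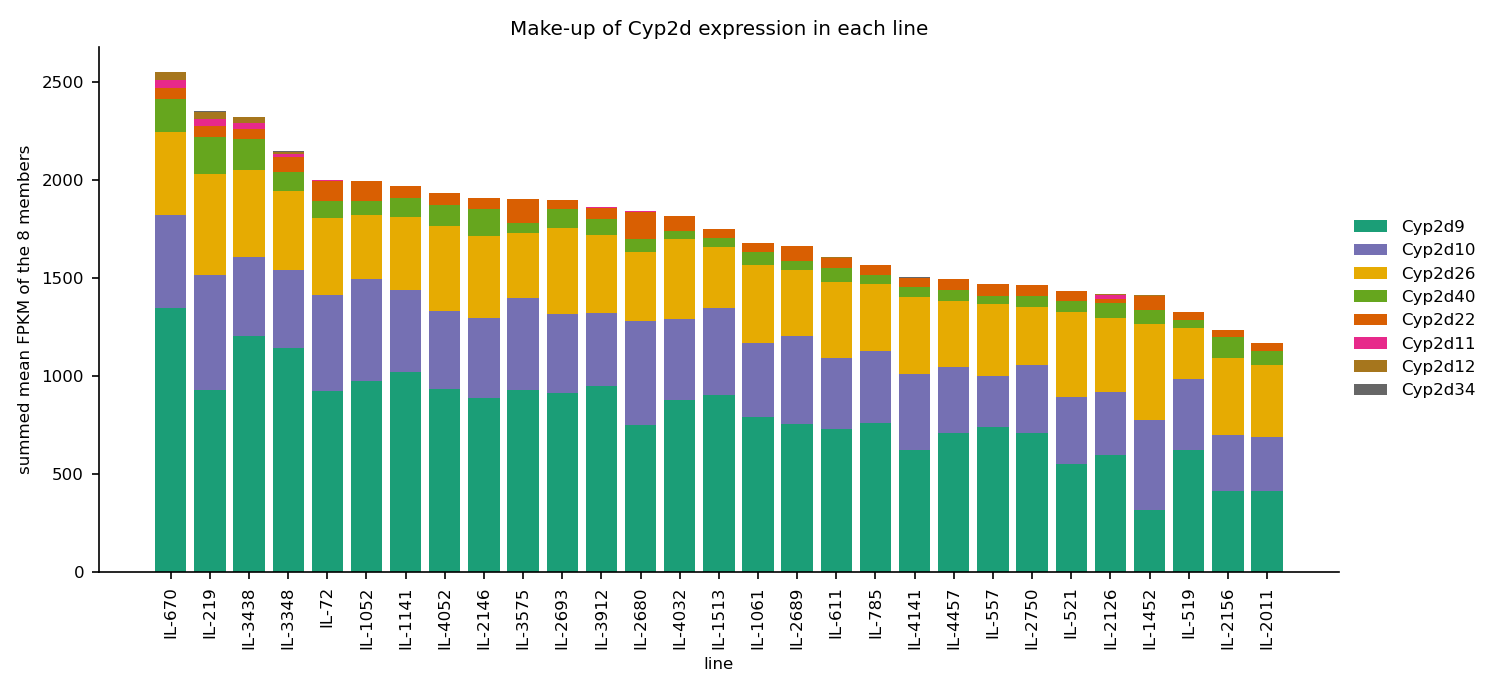
Bars show the mean FPKM of each member stacked to their sum on the vertical axis, with the 29 lines ordered by that sum on the horizontal axis. Cyp2d9, Cyp2d10 and Cyp2d26 fill most of every bar, and visible amounts of Cyp2d11 and Cyp2d12 occur at the left end and in IL-2126.

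All 8 members differed among lines. In edgeR's quasi-likelihood F test over 47 mice, those of the 21 lines with 2 or 3 animals, all 8 had an adjusted p under 0.05 over 15285 genes, where 88.5% of all genes tested did so. A count of 8 is therefore close to what the whole transcriptome gave. The adjusted p (edgeR) was 4.16e-13 for Cyp2d11, 1.26e-12 for Cyp2d12, 4.68e-08 for Cyp2d34, 2.01e-07 for Cyp2d22, 5.83e-06 for Cyp2d40, 0.000323 for Cyp2d10, 0.000697 for Cyp2d9 and 0.00472 for Cyp2d26. The F statistic was 35.4 for Cyp2d11 and 32.3 for Cyp2d12, against a median of 4.17 over all genes and 3.02 for Cyp2d26. All 8 were also called without mouse 3 of IL-785, with the gene filter and the trend of the spread kept from all 47 mice.

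The intraclass correlation, which is near 1 where mice of a line are alike and lines are not, could be estimated for 7 members over all 55 mice, since Cyp2d34 did not meet the filter on distinct levels. It was 0.888 for Cyp2d11, 0.805 for Cyp2d12, 0.745 for Cyp2d40, 0.638 for Cyp2d22, 0.613 for Cyp2d10, 0.588 for Cyp2d9 and 0.555 for Cyp2d26. All 7 passed a one-sided permutation test of the line labels after adjustment over 5949 genes, of which 94.1% passed. The median over these genes was 0.592. Without IL-1052 and IL-2750, the value of Cyp2d22 was 0.90 and that of Cyp2d10 was 0.791. Cyp2d11, Cyp2d12 and Cyp2d40 were at 0.904, 0.824 and 0.769, while Cyp2d9 and Cyp2d26 were lower than with all lines, at 0.576 and 0.510.

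**Figure D2:**
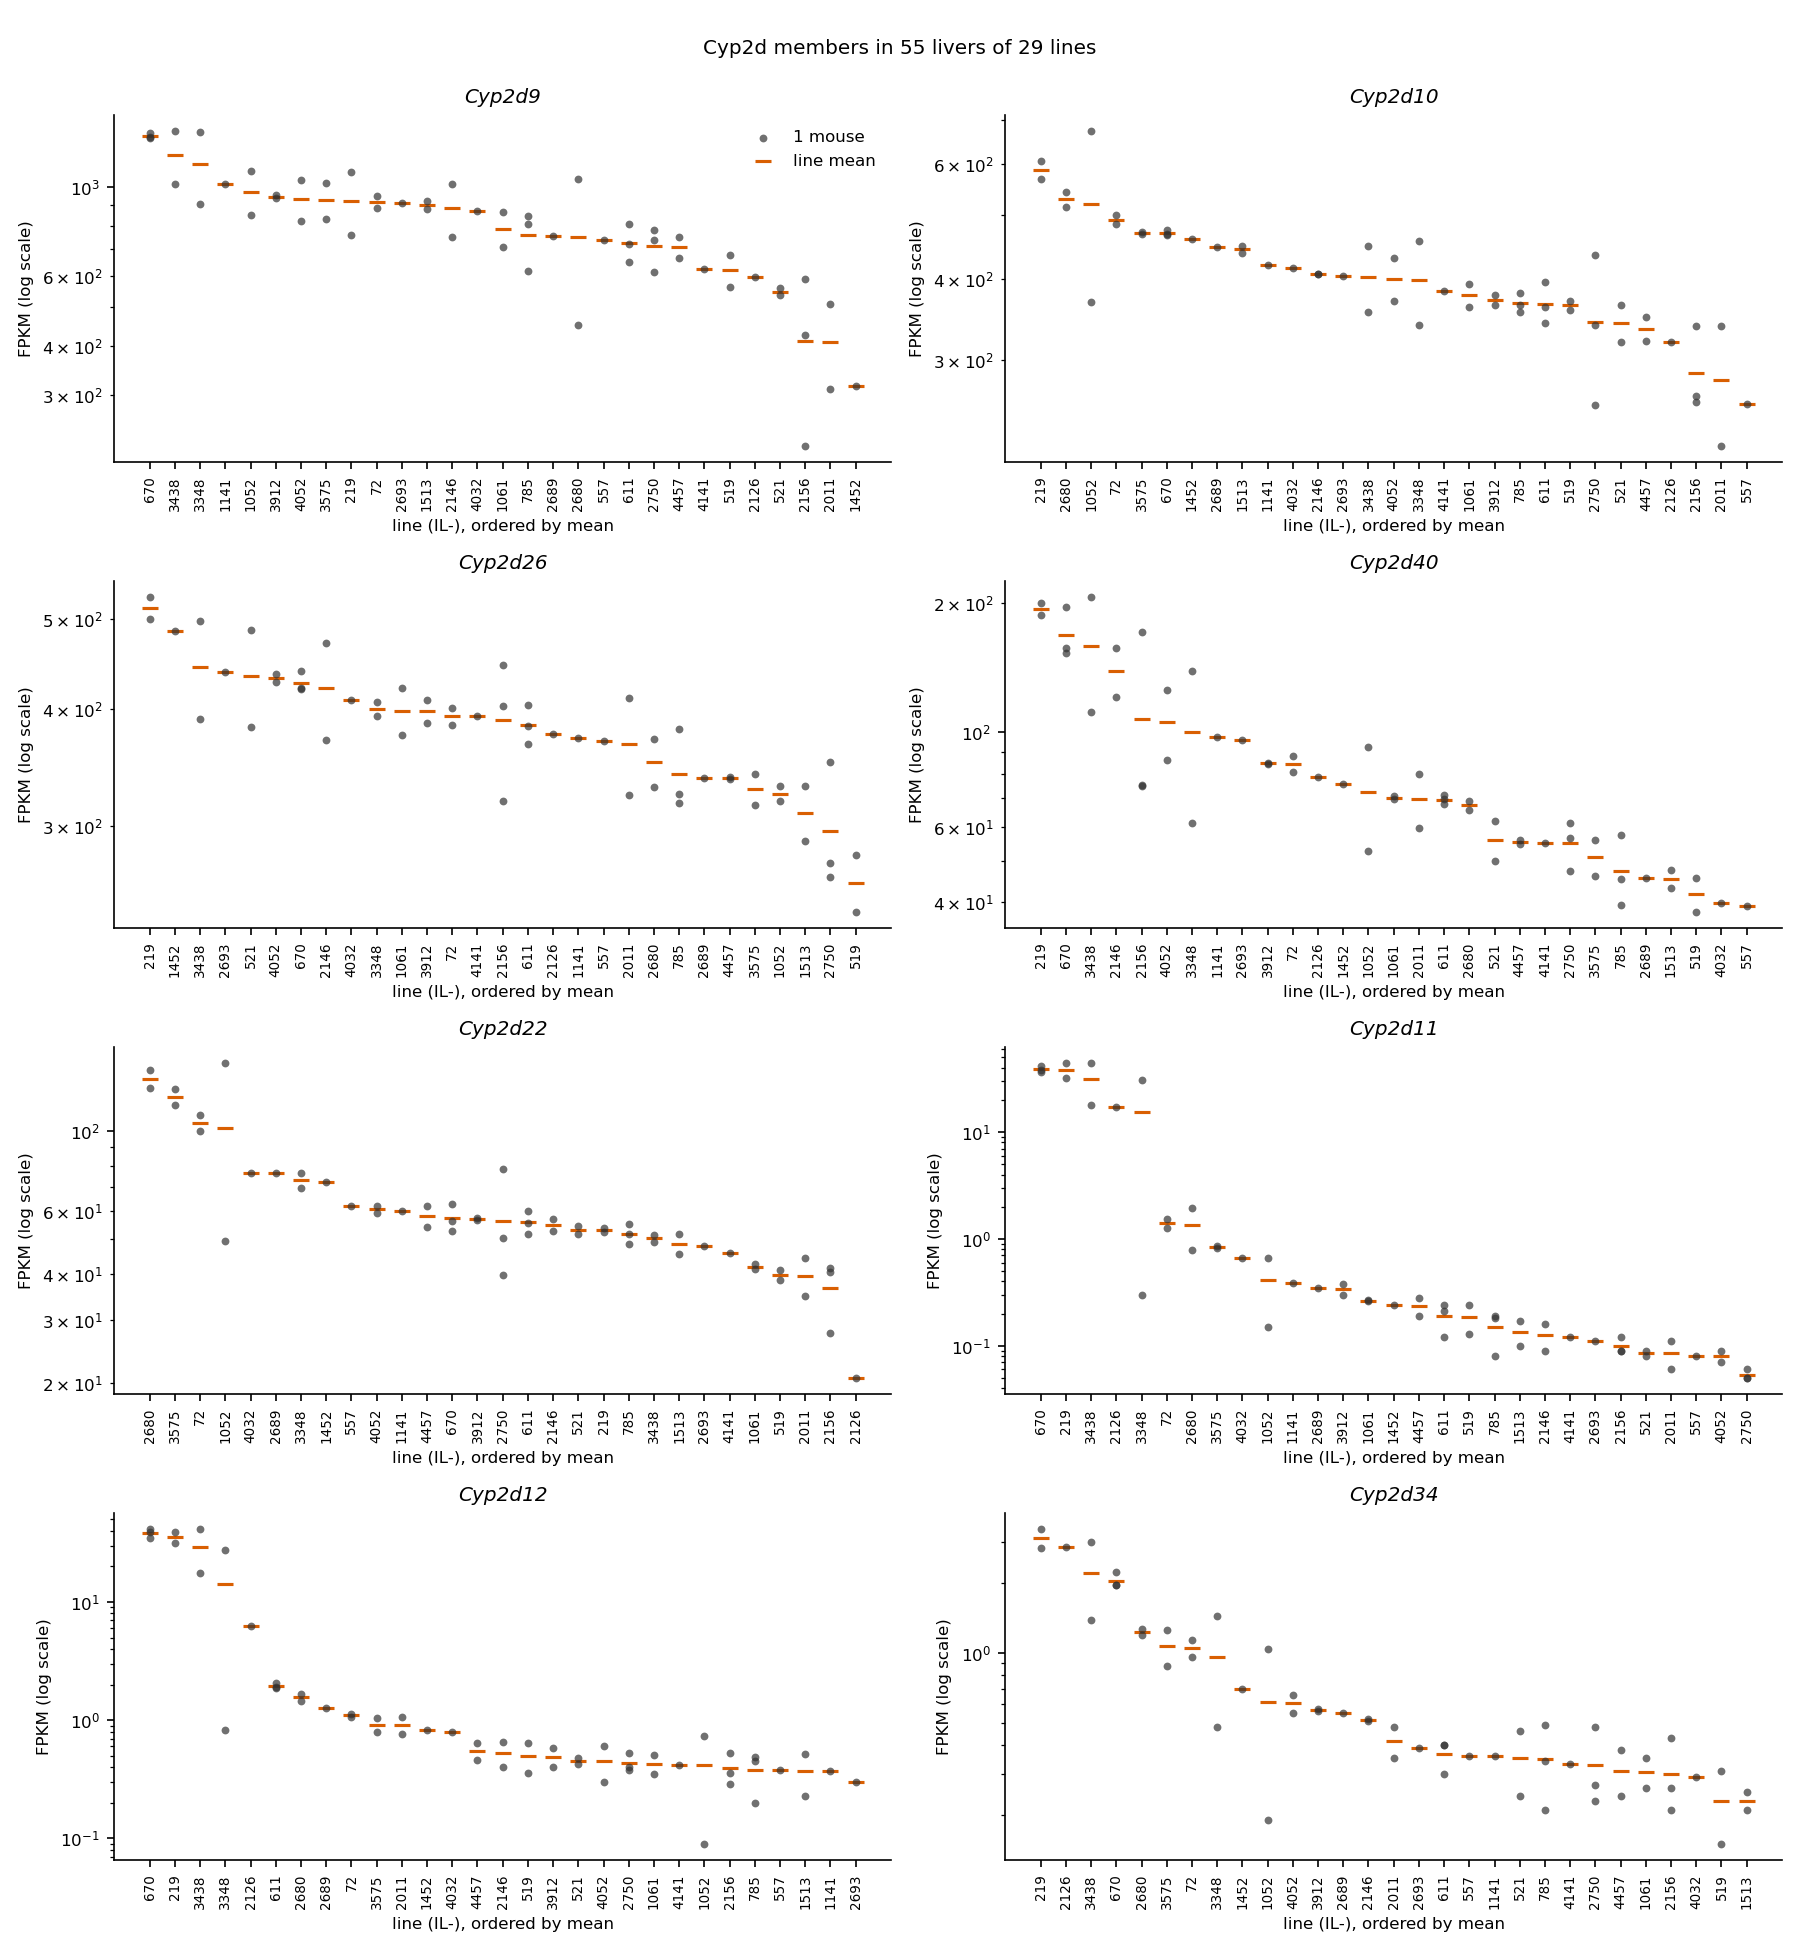
FPKM of each member on a log scale, with 1 point per mouse and a bar at the mean of each of the 29 lines, ordered by mean within each panel. Cyp2d9, Cyp2d10 and Cyp2d26 fall off gradually, and Cyp2d22 has a few high lines and a single low mouse. Cyp2d11 and Cyp2d12 have 5 lines with high means, of which IL-3348 holds 1 low mouse, and 24 low lines.

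Cyp2d9, the testosterone hydroxylase, had a median of 809.5 FPKM over the 55 mice, with a lowest value of 223.7 and a highest of 1384. The 3 mice of IL-670 had 1340, 1370 and 1330 FPKM, a mean of 1347 ± 20.6 (SD, n = 3). IL-3438 followed with 1384 and 1020 FPKM, and IL-3348 with 907.5 and 1376. These values are above those of every mouse of the 3 lowest lines. The single mouse of IL-1452 had 315.9 FPKM, the mice of IL-2011 had 310.8 and 507.8, and those of IL-2156 had 586.9, 424.3 and 223.7. The highest line mean was 4.26 times the lowest. In the order of the lines only 1 of 28 steps, that from IL-521 to IL-2011, exceeded the SD within lines of 0.34 on the log2(FPKM + 1) scale, so that neighbouring lines mostly did not differ beyond their spread.

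Cyp2d10, whose coding sequence is nearest to Cyp2d11, ranged less, with 221.9 FPKM in the lowest mouse, a median of 383.2 and 673.1 in the highest. IL-219 had 605.1 and 568.2 FPKM and led the order with a mean of 586.6 ± 26.1 (SD, n = 2). At the other end, the only mouse of IL-557 had 257.7 FPKM, and the mice of IL-2011 had 221.9 and 338.1. The range over line means was 2.28-fold, and none of the 28 steps exceeded the SD within lines of 0.21.

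Cyp2d26 had the narrowest range, 1.97-fold over line means. Its lowest mouse had 242.4 FPKM, the median was 382.7 and the highest was 527.9. IL-219 was again first, with a mean of 513.9 FPKM, and IL-519 last, with 242.4 and 279.0. The mice of these lines did not overlap, and the step down to IL-519 was the only 1 of 28 that exceeded the SD within lines of 0.15. IL-1452, lowest for Cyp2d9, was second for Cyp2d26 with 485.4 FPKM in its mouse.

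Cyp2d40, next to Cyp2d26 and the closest relative of Gm5062, had a median of 69.7 FPKM, between 38.0 in the lowest mouse and 206.8 in the highest. The mice of IL-219 had 199.8 and 187.5 FPKM, those of IL-670 157.5, 153.4 and 195.5, and those of IL-3438 206.8 and 111.3. The lowest line means were 39.2 FPKM in the mouse of IL-557 and 40.0 in that of IL-4032, and the range over lines was 4.94-fold. The step from IL-2146 to IL-4052 was the 1 step of 28 above the SD within lines of 0.34. Gm5062 had its highest mean in IL-219 as well, 19.2 FPKM against a median line of 2.47.

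Cyp2d22, the counterpart of CYP2D6, had a median of 54.3 FPKM, with 20.7 in the lowest mouse and 154.0 in the highest. Its highest line means were in IL-2680, IL-3575, IL-72 and IL-1052, which held ranks 2, 5, 4 and 3 of Cyp2d10. IL-219, first for Cyp2d10, was at rank 19 for Cyp2d22. IL-2680 had 147.0 and 131.2 FPKM, IL-3575 had 117.8 and 130.1, and IL-72 had 110.7 and 99.7. No mouse of another line reached these values except mouse 2 of IL-1052, which had 154.0 FPKM while its line mate had 49.5. The single mouse of IL-2126 was lowest with 20.7 FPKM, and the step to it was the 1 step of 28 above the SD within lines of 0.29. The range over line means was 6.72-fold with this mouse and 3.80-fold over the 21 lines with at least 2 mice.

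Cyp2d11 and Cyp2d12 were at a low level in most lines and clearly expressed in mice of 5 lines, in IL-3348 only in mouse 2. Cyp2d11 had 36.3, 38.0 and 41.5 FPKM in the mice of IL-670, 31.8 and 44.4 in IL-219, 44.5 and 17.8 in IL-3438 and 17.0 in the mouse of IL-2126. IL-3348 had 0.30 FPKM in mouse 1 and 30.7 in mouse 2. The other 24 lines had means of at most 1.40 FPKM, 11.1 times below the mean of 15.5 in IL-3348, which describes neither of its mice. The low values rest on few fragments, with 2.17 in the mouse with the fewest and a median over all mice of 9.24. No fold against the lowest line is therefore given. On the log2(FPKM + 1) scale, 3 of 28 steps exceeded the SD within lines of 0.68. They were 0.70 below IL-3438, 1.49 below IL-2126 and 1.42 below IL-3348.

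Cyp2d12 had its highest line means in the same 5 lines. It had 39.1, 41.6 and 34.9 FPKM in IL-670, 31.4 and 39.4 in IL-219, 41.2 and 17.7 in IL-3438, and 0.83 and 27.6 in mice 1 and 2 of IL-3348. In the mouse of IL-2126 it had 6.22 FPKM, lower than Cyp2d11 in the same mouse. The next line, IL-611, had 1.88, 1.91 and 2.08 FPKM, a mean of 1.96 ± 0.108 (SD, n = 3), and the remaining 23 lines lay below it. On the log2(FPKM + 1) scale, 2 of 28 steps exceeded the SD within lines of 0.60. The step below IL-3438, 1.96, was larger than that below IL-2126, 1.29. The 5 lines were recognised after the values had been seen, so the members are set side by side in them without a test.

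**Figure D3:**
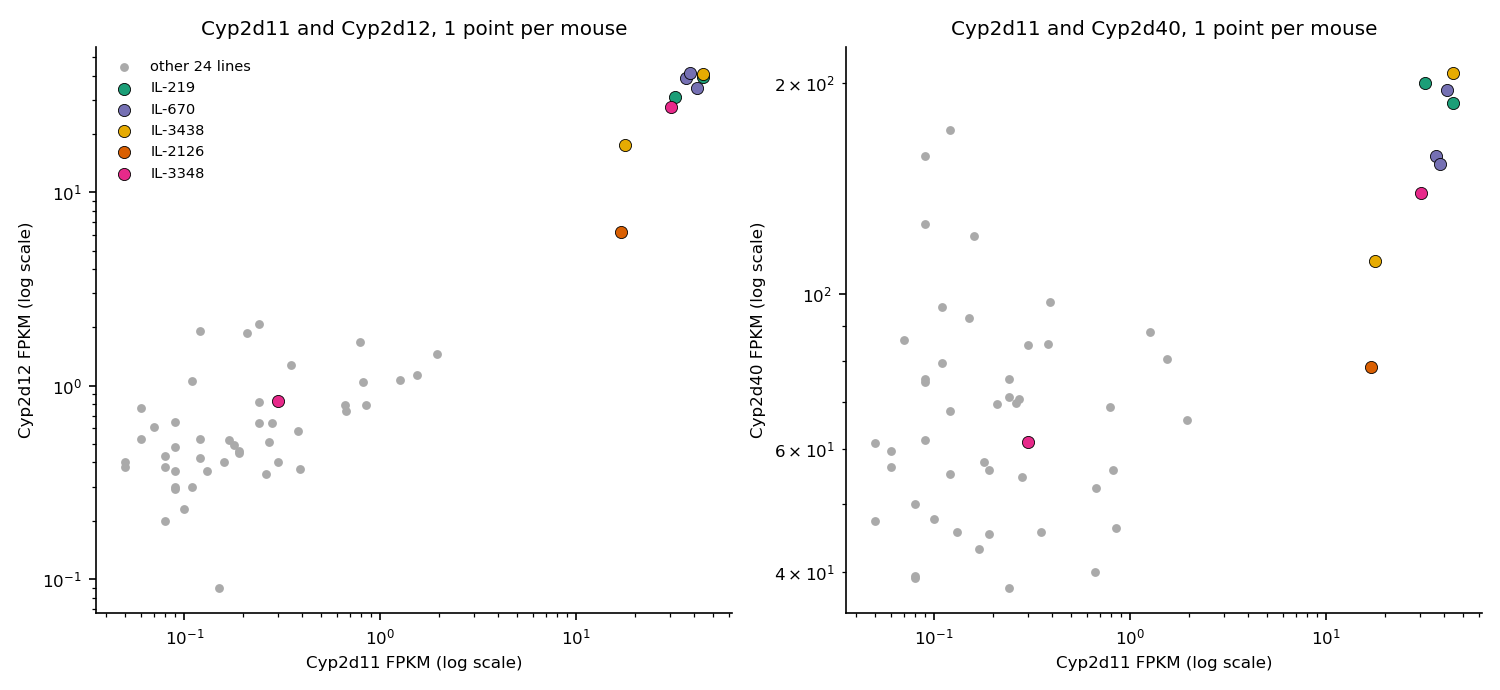
FPKM of Cyp2d12 and of Cyp2d40 against that of Cyp2d11 on log scales, with 1 point per mouse and the 5 lines with high Cyp2d11 in colour. Their mice lie apart at the right of both panels except mouse 1 of IL-3348, which lies among the other 24 lines at 0.30 FPKM of Cyp2d11.

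Among the 29 line means, IL-670, IL-219 and IL-3438 also held the first 3 ranks of Cyp2d40, and these lines with IL-2126 held the first 4 ranks of Cyp2d34. Cyp2d9 had IL-670, IL-3438 and IL-3348 at ranks 1, 2 and 3, but IL-219 at rank 9 and IL-2126 at rank 25. Cyp2d22 had them at ranks between 7 and 29. High Cyp2d11 thus did not go with a high level of every member.

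Cyp2d34 was also low, with a median of 0.48 FPKM, above the 0.24 of Cyp2d11, and between 7.60 and 125.2 fragments per mouse. The mice of IL-219 had 3.42 and 2.82 FPKM, the mouse of IL-2126 had 2.85, those of IL-3438 had 3.01 and 1.38, and those of IL-670 had 1.96, 2.22 and 1.95. Mouse 2 of IL-3348, with 1.44 FPKM, was just above the lower mouse of IL-3438, and no mouse of the other 24 lines reached 1.38. The lowest line mean, 0.23 FPKM in IL-519, rests on 7.60 and 14.7 fragments, so no fold against it is given. The steps below IL-2126 and below IL-670 were the 2 of 28 that exceeded the SD within lines of 0.21.

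The mice of IL-3348 differed from each other in some genes of the cluster and little in others. From mouse 1 to mouse 2, Cyp2d9 went from 907.5 to 1376 FPKM, Cyp2d10 from 339.6 to 456.1, Cyp2d40 from 61.3 to 139.1, Cyp2d34 from 0.48 to 1.44 and Gm5062 from 3.10 to 10.2. Cyp2d22, at 69.6 and 76.2, and Cyp2d26, at 393.6 and 407.7, differed little. Cyp2d37-ps went the other way, from 13.4 to 10.6. The fold between the mice was 102.3 for Cyp2d11 and 33.2 for Cyp2d12, with 14.2 and 39.6 fragments in mouse 1. The median fold between line mates over the 21 lines was 1.47 for Cyp2d11 and 1.45 for Cyp2d12. Of all 8964 genes with at least 2 FPKM in either mouse of IL-3348, 157 differed by more than 2-fold on the FPKM + 1 scale, or 1.75%. None of the 31 other genes within 1000 kb of the cluster did so, but so small a set can readily hold none at that share. Within 5000 kb, 3 of 83 did, or 3.61%. Of the 31 pairs of line mates, 17 differed in a larger share of all genes than these mice.

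Isoforms were described for 5 members, since Cyp2d9, Cyp2d26 and Cyp2d40 have 1 annotated transcript each. The isoform percentage is the share of a gene's expression that the authors' estimation assigned to a transcript. For 1 isoform per gene, the one with the most distinct percentages, the similarity of line mates was tested by the intraclass correlation. Of the 3 members with such a trait 1 was called after adjustment over 6650 genes, of which 25.9% were called.

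That member was Cyp2d12. Its shorter transcript, ENSMUST00000014525, lacks exon 3 of the 9 exons of ENSMUST00000068861, 153 bases at chr15:82387074-82387226, and leaves a coding sequence of 1362 in place of 1515 bases. Its first and last exons are also annotated as shorter. The exon is printed in capitals with 15 bases of intron on either side, from the NCBIM37 assembly. It is shown because the estimated share of the transcript without it differed among the lines with high Cyp2d12. Whether this comes from use of the exon or from founder variants in the reads was not tested.
Cyp2d12 exon 3 (chr15:82387059-82387241, plus strand): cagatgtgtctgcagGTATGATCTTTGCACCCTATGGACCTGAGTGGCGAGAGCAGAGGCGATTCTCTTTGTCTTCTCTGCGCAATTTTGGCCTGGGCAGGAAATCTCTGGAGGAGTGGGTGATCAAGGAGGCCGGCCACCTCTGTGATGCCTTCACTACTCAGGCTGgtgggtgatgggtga

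None of the 104 stretches of 50 bases in this exon occurs in another member, although 87.6% of its bases match Cyp2d10 and 86.9% match Cyp2d9. In the mice of IL-670, with between 1232 and 1840 Cyp2d12 fragments each, the transcript without the exon took 99.6%, 98.9% and 100%. It took 97.1% and 92.0% in IL-3438, 88.6% in mouse 2 of IL-3348 with 1038 fragments and 96.6% in IL-2126. In IL-219, with 987.3 and 1211 fragments, it took only 51.2% and 63.4%. The mice of IL-219 thus lay below all other mice with at least 100 Cyp2d12 fragments. In the 46 mice with fewer fragments the share ran from 0% to 100%, with 14 mice at 0% and 11 at 100%, and a single mouse says little there. In IL-611, with the most fragments among those lines, it was 0%, 0% and 11.2%. The intraclass correlation of this share over all 55 mice was 0.467, which passed when the line labels were permuted (one-sided, p = 0.0071 and, after adjustment, 0.0340).

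**Figure D4:**
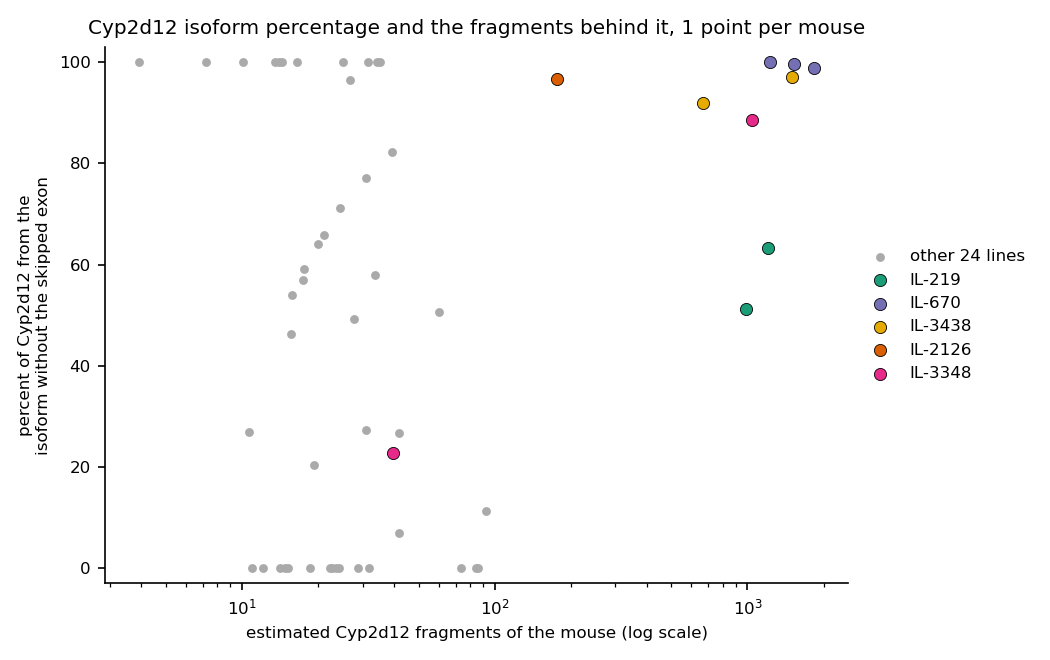
Percent of Cyp2d12 assigned to the transcript without exon 3, against the estimated Cyp2d12 fragments of the mouse on a log scale, with 1 point per mouse. Mice with under 100 fragments spread from 0% to 100%, and among the 9 mice with more the 2 of IL-219 lie lowest, at 51.2% and 63.4%.

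The remaining isoforms of the cluster differ by a few bases. The transcripts of Cyp2d22 end exon 1 at positions 6 bases apart in the part before the coding sequence, and ENSMUST00000023083, the longer, took 16.3% (median, 8.43% to 32.7%). Line mates were hardly more alike than other mice, at an intraclass correlation of 0.0437 (permutation of line labels, one-sided, adjusted p = 0.519), so a line effect was not detectable. The highest share, 32.7%, was in the mouse of IL-2126 that had the least Cyp2d22, 1156 fragments, and IL-2680, with the highest level, had 19.7% and 17.7%. In Cyp2d34, ENSMUST00000035410 leaves out a single base of the genome within an exon, which shortens the annotated coding sequence from 1515 to 771 bases. It took 94.4% (median, 90.01% to 99.98%) over the mice, and its intraclass correlation of 0.0602 missed the threshold too (permutation of line labels, one-sided, adjusted p = 0.491).

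Cyp2d11 has a second transcript, ENSMUST00000089128, that leaves out 6 bases in a pair of gaps. The stretches around these bases are printed from NCBIM37 with the left-out bases in capitals, as they are all that separates the annotated transcripts within the gene.
Cyp2d11 (chr15:82220434-82220521, minus strand): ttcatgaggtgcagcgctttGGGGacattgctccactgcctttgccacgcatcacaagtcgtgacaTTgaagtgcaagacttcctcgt
Cyp2d34 (chr15:82448030-82448070, minus strand): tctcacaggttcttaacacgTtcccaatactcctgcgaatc

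In the 9 mice with at least 538.5 Cyp2d11 fragments, ENSMUST00000089128 took at most 0.50%. In the 46 mice with fewer it was given as 0% in 17 and as 100% in 29, on between 2.17 and 83.8 fragments per mouse. The transcript ENSMUST00000100382 of Cyp2d10, with gaps of the same lengths, took at most 0.090% in any mouse.

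Correlation of line means was examined for the pairs among 6 members, since the values of Cyp2d11 and Cyp2d12 were seen to fall into separate clusters of lines. Over the 29 line means, 13 of the 15 pairs had a positive Spearman rho. None of them was called, because neither member of a pair had an adjusted p under 0.05 with the other over 11283 genes. For each of the 6 members 0% of these genes were called, by the Spearman correlation as by the Pearson correlation of log2(FPKM + 1). With log2(FPKM + 0.1), the Pearson correlation called 4 genes for Cyp2d34, namely Cyp2d11, Cyp2d12, Gm5062 and Gm10651 (permutation test, adjusted p = 0.0282 for each), and none for the other 5 members. For Cyp2d11, set aside above, the Pearson correlation of log2(FPKM + 1) called Cyp2d12 (r 0.97), Cyp2d34 (0.90), Gm5062 (0.77) and Gm10651 (0.97). The adjusted p was 0.0282 for each (permutation test). With log2(FPKM + 0.1), Cyp2d11 and Cyp2d12 passed from both sides (r 0.95, permutation test, adjusted p = 0.0282 and 0.0376), as did each with Cyp2d34. These r span the high and the low lines, and Spearman correlation with permutations called no gene for either. With 100000 permutations the smallest p is 1e-05, and a single gene at this p has an adjusted p of 0.113, so that only several genes together could have passed. At an unadjusted p under 0.05, 9 of 15 pairs passed by Spearman and 6 by Pearson correlation, where between 587 and 1191 of all 11283 genes passed with a member by Spearman correlation.

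Cyp2d26 and Cyp2d40, neighbours at the distal end, had the highest rho, 0.66 (two-sided permutation test, p = 9e-05, adjusted p = 0.254 and 0.128 for the genes of either member). Their Pearson r of log2(FPKM + 1) was 0.66 (permutation p = 9e-05, adjusted p = 0.593 and 0.232) and 0.56 without IL-219 and IL-519. Cyp2d10 and Cyp2d22 followed with a rho of 0.58 (permutation p = 0.00113, adjusted p = 0.215 and 0.947) and an r of 0.61 (permutation p = 0.00066, adjusted p = 0.334 and 0.438), which was 0.78 without IL-219 and IL-557. Cyp2d34 and Cyp2d40 had a rho of 0.57 (permutation p = 0.0014, adjusted p = 0.486 and 0.236) and an r of 0.62 (permutation p = 0.00043, adjusted p = 0.485 and 0.232), which was 0.60 without IL-219 and IL-2126. Cyp2d9 and Cyp2d10 had a rho of 0.57 (permutation p = 0.00141, adjusted p = 0.283 and 0.233) and an r of 0.46 (permutation p = 0.0116, adjusted p = 0.897 and 0.469), which was 0.63 without IL-670 and IL-1452. These pairs share fragments to different degrees, and the part of shared fragments in their correlation was not tested.

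Cyp2d22 had a rho of -0.07 with Cyp2d26 (permutation p = 0.727) and -0.13 with Cyp2d40 (permutation p = 0.505), the only negative values. Within the 24 lines with low Cyp2d11, the rho of Cyp2d11 was 0.73 with Cyp2d10, 0.62 with Cyp2d22 and 0.43 with Cyp2d12, but -0.02 with Cyp2d40 and -0.11 with Cyp2d26. That of Cyp2d12 was 0.45 with Cyp2d34, -0.08 with Cyp2d40 and -0.23 with Cyp2d9, the gene with which Cyp2d12 shares most stretches. These describe levels of a few fragments. A median Cyp2d11 estimate of 9.24 fragments stands beside a median of 17399 for Cyp2d10, with which Cyp2d11 shares 26.9% of its stretches of 50 bases.

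**Figure D5:**
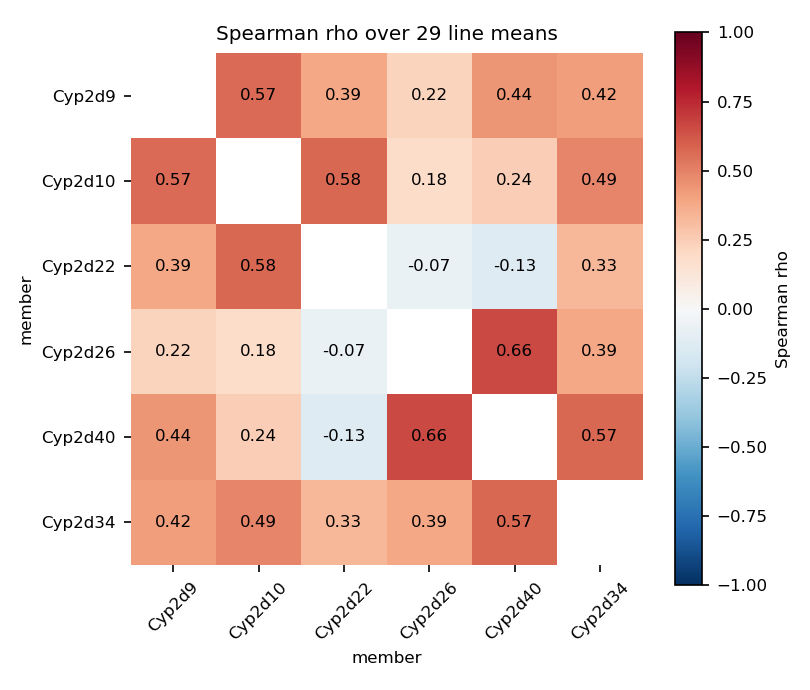
Spearman rho between the line means of 6 members over 29 lines, on a colour scale from -1 to 1. The pair of Cyp2d26 and Cyp2d40 has the highest value, 0.66, and Cyp2d22 has values near 0 with both.

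By Spearman correlation, no gene outside the family passed the adjusted threshold with any of the 6 members. The genes most alike were Cby1 (rho 0.70), Fzr1 (0.70) and Nosip (0.68) for Cyp2d9, and Il17rc (0.67), Sbk1 (0.65) and Galnt10 (0.65) for Cyp2d10. For Cyp2d22 they were Eif1ax (0.67), Ttll12 (0.66) and Rps13 (0.61). For Cyp2d26 they were Upb1 (0.77), an enzyme of pyrimidine breakdown, Zfp523 (0.69) and Ints5 (0.66). For Cyp2d40 they were 2410002I01Rik (0.69), Tmem37 (0.68) and the DNA glycosylase gene Neil1 (0.68), and for Cyp2d34 they were Polr3g (0.71), Tmprss6 (0.70) and Rilp (0.67). The lowest rho was that of Gnl2 with Cyp2d9 (-0.64), Gm4963 with Cyp2d10 (-0.63), Gm16793 with Cyp2d22 (-0.62), Trmt61b with Cyp2d26 (-0.57) and Gm6252 with both Cyp2d40 (-0.69) and Cyp2d34 (-0.64).

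For the 18 genes at the upper end the Pearson r of log2(FPKM + 1) ran from 0.37 to 0.81, and from 0.37 to 0.76 without the 2 lines farthest from the median. Their adjusted p-values in permutation tests were at least 0.10 by Spearman and at least 0.0564 by Pearson correlation. Cby1, Ttll12 and Tmprss6 lie on chromosome 15 like the cluster.

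Genes next to the cluster varied among lines too. Within 200 kb of its ends, 11 protein-coding genes were annotated, of which 7 had enough counts for the edgeR test and all 7 were called, where 88.5% of all genes were. Ndufa6, a subunit of respiratory complex I and the nearest gene on the side of Cyp2d22, had line means between 116.8 and 295.7 FPKM. The Cyp2d37-ps locus had line means from 3.84 to 15.7 FPKM, and its largest rho with a member was 0.24. Gm5062 had a rho of 0.81 with Cyp2d34 (permutation test, adjusted p = 0.113, with p at the smallest value these permutations can give). Gm5806 was at 0 in the lowest line and 2.50 FPKM in the highest, and shares 55.5% of its stretches of 50 bases with Tdg.

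Genes that P450 enzymes depend on were read from lists. Of the electron donors 2 of 3 tested genes were called among lines by edgeR, of the genes of haem synthesis 7 of 8, of the regulators of hepatic P450 genes 14 of 16, of male-biased liver genes 7 of 8 and of female-biased liver genes 11 of 11, where 88.5% of all genes were. The median F was 4.95, 6.79, 4.36, 4.17 and 10.2 for these lists, against 4.17 over all genes. Por had line means between 26.1 and 250.6 FPKM, and a rho of 0.01 with Cyp2d9 (permutation test, adjusted p = 0.988).

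Within the lists, Urod had the highest rho of the haem genes with Cyp2d40, 0.52 (permutation test, adjusted p = 0.310), and Alad with Cyp2d26, 0.49 (permutation test, adjusted p = 0.470). Mup20, a urinary protein of male liver, had the lowest of the male-biased genes with Cyp2d26, -0.50 (permutation test, adjusted p = 0.470). Slco1a1, a male-biased uptake transporter, had the highest of its list with Cyp2d9, 0.40 (permutation test, adjusted p = 0.469). The highest rho of a female-biased gene with Cyp2d9 was 0.05 for Cyp3a16 (permutation test, adjusted p = 0.952). None of the list genes passed the adjusted threshold with a member, and the Pearson r with the same member was 0.39 for Urod, 0.50 for Alad, -0.34 for Mup20, 0.40 for Slco1a1 and 0.14 for Cyp3a16.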

How the data were processed

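Total RNA of 55 livers was made into stranded libraries of polyadenylated RNA and sequenced as read pairs of 50 bases. The authors aligned the reads to the mouse genome (mm9, NCBIM37) with Bowtie 2 and quantified Ensembl genes and transcripts with RSEM (version 1.2.18 in the submitters' processing notes). The deposited tables give, for each mouse, expected counts, TPM and FPKM per gene and isoform as the authors' estimates. The deposited isoform percent is the share of a gene's expression given to each transcript. RSEM divides fragments that match several genes by likelihood, which bears on similar members.

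Expected counts were rounded to whole numbers, and genes kept by edgeR's expression filter were tested among 21 lines with the quasi-likelihood F test of edgeR (4.0.16) with TMM scaling and Benjamini-Hochberg adjustment over all genes. Levels were described as FPKM, and logarithms taken of FPKM + 1. Intraclass correlations were computed on rank-based normal scores, with 20000 permutations of the line labels, for genes reaching 2 FPKM with at least 12 distinct levels. These filters follow the study's description, but kept another number of isoform traits than the study did. Correlations used the line means with 100000 permutations and adjustment over all genes. Marker genes were summed in FPKM. No sample was left unmapped, and no batch is named in the labels.

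Named were all members and isoforms, other genes with a Cyp2d symbol, per member the 3 genes outside the family with the highest rho and the 1 with the lowest, protein-coding genes within 200 kb, and the list genes with the highest or lowest rho of their list. Some genes that this rule names are not reported here. Members and lists were chosen with earlier results of these data known. Identity was computed between coding sequences in place of proteins, for which no table was used, with Biopython (1.88). Promoter windows came from RefSeq. In simulated data, the edgeR test among 21 lines recovered 200 of 200 genes changed 3-fold in 5 lines, with 9 false calls among 14430 genes. The simulation gave all genes the same spread and changed only genes with ample counts. It therefore says little about members with few fragments. Alternatives were another scaling (DESeq2 1.42.0 size factors), filter, unit, pseudocount, choice of lines and each mouse or line left out.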

Additional observations from a re-analysis of the deposited data

How the results depend on the processing

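All 8 members stayed called among lines with each mouse left out in turn (8 to 8). These fits kept the gene filter and the trend of the spread from the full set of mice, so they were not independent of the mouse left out. With at least 10 counts required in every mouse, 5 of 5 members tested were called, since Cyp2d11, Cyp2d12 and Cyp2d34 were then not tested. Over the lines with at least 2 mice, the range of line means was 3.29-fold for Cyp2d9 and 3.80-fold for Cyp2d22, because IL-1452 and IL-2126 had 1 mouse each. No pair among the 6 members was called when each line was left out (0 to 0) or under the 10 other alternatives, and 1 isoform trait was called throughout (1 to 1). Leaving out IL-3348 and the t approximation of the rank correlation were chosen after seeing the data. With the t approximation, Cyp2d26 passed with Upb1 (adjusted p = 0.0137), Cyp2d34 with Gm5062 (adjusted p = 0.000851) and Cyp2d12 with Gm10651 (adjusted p = 0.0339). With permutations these passed under neither the Spearman correlation nor the Pearson correlation of log2(FPKM + 1), whereas with log2(FPKM + 0.1) the last pairs, Cyp2d34 with Gm5062 (adjusted p = 0.0282) and Cyp2d12 with Gm10651 (adjusted p = 0.0376), passed. No paired analysis was possible because the mice are numbered as individuals and the numbers are not shared between lines. Values of Cyp2d11, Cyp2d12 and Cyp2d34 in most lines rest on few fragments, 8 lines had 1 mouse, and fragments shared between members limit all comparisons between them.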
